A study of Mus musculus with 12 samples.

Results

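The forkhead family of transcription factors was followed on 12 expression arrays of sorted mouse embryo cells. Members were the genes whose single symbol in the platform's probe table reads Fox, a letter from a to s and a number, which gave 37 of 18193 genes. They were covered by 82 probe sets, and each of the 21 members with more than 1 was represented by the one with the highest mean over all arrays. Embryos were at embryonic day 8.0, from a mixed C57BL/6 and FVB line called ER71 EYFP. The 4 groups, each of 3 arrays, were ER71 mutant EYFP+ cells, ER71 wild-type EYFP+ cells, ER71 mutant EYFP- cells and ER71 wild-type EYFP- cells, where + and - stand for the positive and negative sides of the sort. ER71 is an older name of Etv2, which encodes an ETS factor that blood and vessels need, and EYFP is a yellow fluorescent reporter. The labels name neither the mutated sequence nor the promoter of the reporter, and they do not tell separate embryos from pools. A p-value below therefore speaks of the scatter among these samples, part of which may be technical. All levels are the deposited log2 values, made with RMA, which summarises the probes of a probe set.

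Forkhead proteins bind DNA through a winged-helix domain and are grouped by letter. FoxA proteins open chromatin at endoderm, notochord and floor plate genes. FoxC proteins act in somites, heart and vessels, and Foxc2 can bind together with Etv2 at composite FOX:ETS sites of endothelial enhancers. FoxF proteins act in lateral plate and gut mesenchyme and respond to Hedgehog signals, Foxh1 brings Smad2 to Nodal target genes, and FoxO proteins leave the nucleus once Akt has phosphorylated them. Mouse embryos without Foxo1 die with badly formed vessels.

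Etv2 itself was at 7.26 to 7.40 in mutant EYFP+ cells, against 10.70 to 11.36 in wild-type EYFP+ cells, and at 7.24 to 7.49 in mutant EYFP- cells, against 7.50 to 7.85 in wild-type EYFP- cells. Whether its probe set lies within the mutated sequence is not known. The mean of 8 endothelial markers was 7.25 to 7.34 in mutant EYFP+ cells, against 9.66 to 10.04 in wild-type EYFP+ cells. A few arrays stood apart. The pair of wild-type arrays numbered 1 differed from the other 10 in the sex-linked genes Xist and Eif2s3y. On its EYFP+ and EYFP- arrays Eif2s3y was at 10.81 and 11.23, against 4.11 to 4.53 on the other 10. Xist was at 10.33 and 8.19, against 13.36 to 13.98. No mutant array had this pattern, so sex was not balanced between genotypes. Mutant EYFP+ array 1 had a yolk sac endoderm marker mean of 10.09, against 6.64 and 6.55 on its fellow arrays. Fewer cells of a type and less RNA per cell cannot be told apart in such sorted bulk samples.

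Forkhead genes changed both with the Etv2 genotype inside the EYFP+ fraction and with the sort. Foxo1 and Foxn2 were lower in mutant than in wild-type EYFP+ cells, whereas Foxo4, Foxf1, Foxf2, Foxh1, Foxl2 and Foxd1 were higher. Of these calls Foxo1's was kept under all 25 alternatives, whereas those of Foxn2, Foxf1, Foxh1, Foxl2 and Foxd1 were lost under 9, 14, 17, 20 and 18 of them. Foxf1 and Foxf2 were also higher by sort in mutants. Foxa1 and Foxb1 were lower on the EYFP+ side of the sort in both genotypes. A gene was called where limma's Benjamini-Hochberg adjusted p over all genes was under 0.05, with no minimum fold, and a value with ± is a log2 difference with its SE from 3 arrays a group. Mutant and wild-type EYFP+ cells differed in 8 of 37 members (21.6%), against 7.97% of all genes. Of these 6 were higher (4.23% of all genes) and 2 lower (3.74%), a split of 3 higher and 2 lower with each array centred on its median and 3 higher and 2 lower after quantile normalization.

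The sort in mutants called 9 members (24.3%, against 5.36% of all genes), 5 higher in EYFP+ cells (3.07%) and 4 lower (2.29%). The sort in wild types called 5 (13.5%, against 8.24%), 2 higher (4.63%) and 3 lower (3.61%). The interaction, here the sort difference of mutants minus the one of wild types, called 4 (10.8%, against 2.58%), 3 above 0 (0.973%) and 1 below (1.61%). In total 13 members passed at least once and 24 never. Within the EYFP+ comparison the largest differences that did not pass were those of Foxa2 (-0.87 ± 0.42 log2) and Foxd2 (0.47 ± 0.18 log2). Within the mutant sort they were those of Foxd3 (-0.45 ± 0.12 log2) and Foxk1 (0.61 ± 0.22 log2), and larger ones in other comparisons are given with their genes. The comparisons share arrays, so these counts are not independent of each other.

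Member medians were close to 0. They were 0.04 log2 for mutant minus wild-type EYFP+ cells (0.01 over all genes), 0.05 for the sort in mutants (-0.03), -0.02 for the sort in wild types (-0.02) and 0.13 for the interaction (-0.02). The arrays of both EYFP+ groups did not overlap for 14 of 37 members (37.8%, against 25.7% of all genes), those of the mutant sort for 15 of 37 members (40.5%, against 19.5% of all genes) and those of the wild-type sort for 10 of 37 members (27%, against 25.2% of all genes). Single arrays mattered for the counts. Between the EYFP+ groups the 8 became 3 without mutant EYFP+ array 1 or 2 or wild-type EYFP+ array 3, 4 without mutant EYFP+ array 3, wild-type EYFP+ array 1 or wild-type EYFP- array 2 or 3 and 5 without mutant EYFP- array 1. In the wild-type sort the 5 became 3 without wild-type EYFP+ array 3 or wild-type EYFP- array 1, and in the interaction the 4 became 0 without wild-type EYFP- array 2, 1 without mutant EYFP+ array 3 or mutant EYFP- array 3 and 2 without mutant EYFP+ array 1, mutant EYFP- array 1 or 2 or wild-type EYFP- array 1 or 3.

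**Figure D1:**
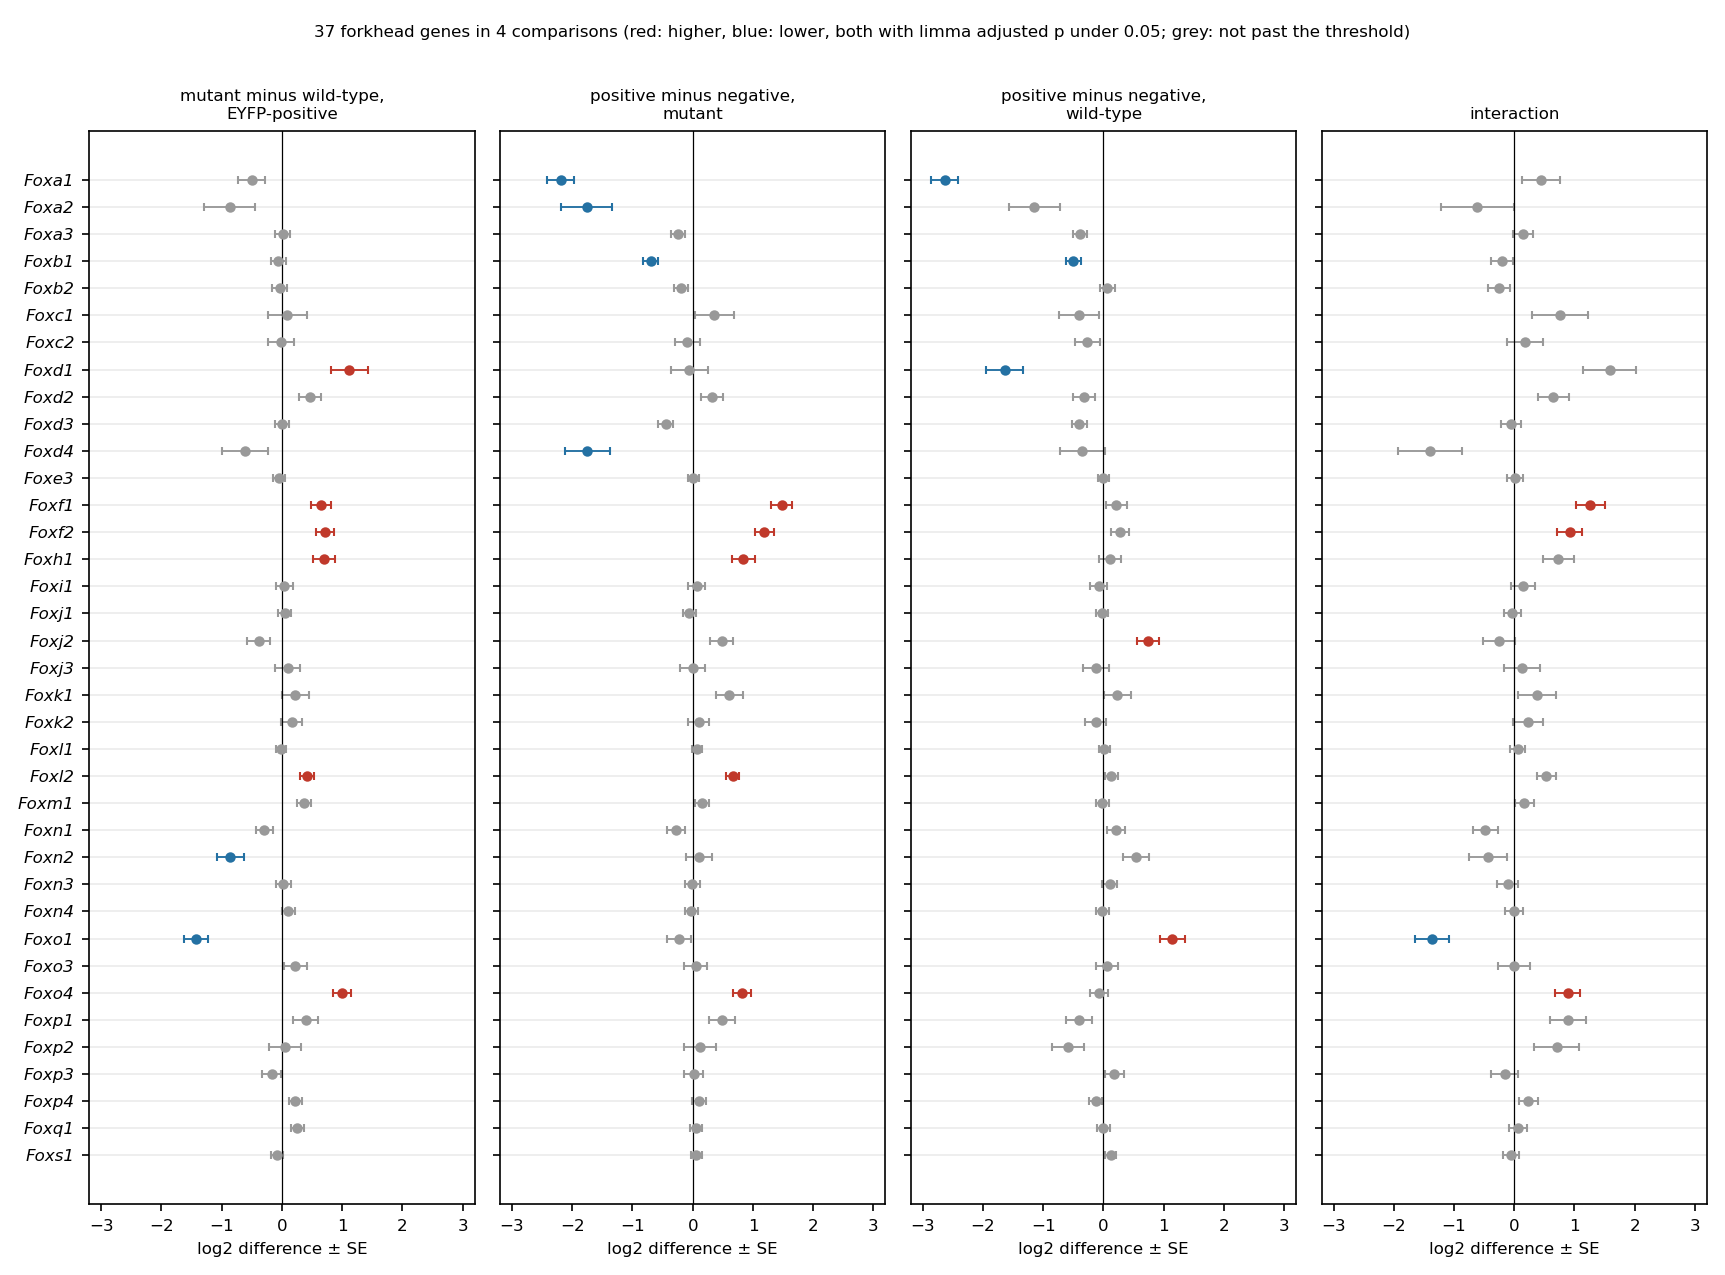
Log2 differences with limma's SE for the 37 forkhead genes in 4 comparisons, from 3 arrays a group: mutant minus wild-type EYFP+ cells, the mutant sort, the wild-type sort and the interaction. Red and blue points passed the threshold, grey ones did not. Foxo1 is at -1.43 for mutant minus wild-type EYFP+ cells and at 1.14 for the wild-type sort.

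Promoters of 4 members, picked after their values were seen, are shown because these genes carry the main patterns: Foxo1 high in wild-type EYFP+ cells, Foxf2 high in mutant EYFP+ cells, Foxd1 low in wild-type EYFP+ cells and Foxa1 low in both EYFP+ groups. The RefSeq table (GRCm38.p6) held a promoter for 24 of 37 members. Each run is the 250 bases before the start, 5′ to 3′ along the gene. Capitals mark the ETS core GGAA or its reverse TTCC and the forkhead motif TGTTTAC or its reverse GTAAACA. Foxo1 lies at chr3:52268087-52268336 (plus strand), Foxf2 at chr13:31625566-31625815 (plus), Foxd1 at chr13:98353995-98354244 (plus) and Foxa1 at chr12:57546112-57546361 (minus).
Foxo1: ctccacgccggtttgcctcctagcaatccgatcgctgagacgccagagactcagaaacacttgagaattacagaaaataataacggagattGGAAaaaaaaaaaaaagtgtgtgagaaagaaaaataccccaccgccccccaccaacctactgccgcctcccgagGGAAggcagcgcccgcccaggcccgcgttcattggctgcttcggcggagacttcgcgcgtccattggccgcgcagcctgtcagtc
Foxf2: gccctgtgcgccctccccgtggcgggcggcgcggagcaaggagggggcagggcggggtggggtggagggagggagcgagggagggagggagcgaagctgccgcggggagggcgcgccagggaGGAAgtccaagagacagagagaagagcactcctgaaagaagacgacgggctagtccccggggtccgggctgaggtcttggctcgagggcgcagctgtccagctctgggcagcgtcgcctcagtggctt
Foxd1: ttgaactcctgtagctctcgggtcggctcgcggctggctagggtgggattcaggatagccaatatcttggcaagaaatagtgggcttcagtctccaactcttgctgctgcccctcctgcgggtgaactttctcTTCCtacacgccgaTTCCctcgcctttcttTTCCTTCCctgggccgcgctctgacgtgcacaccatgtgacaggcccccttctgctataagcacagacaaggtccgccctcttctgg
Foxa1: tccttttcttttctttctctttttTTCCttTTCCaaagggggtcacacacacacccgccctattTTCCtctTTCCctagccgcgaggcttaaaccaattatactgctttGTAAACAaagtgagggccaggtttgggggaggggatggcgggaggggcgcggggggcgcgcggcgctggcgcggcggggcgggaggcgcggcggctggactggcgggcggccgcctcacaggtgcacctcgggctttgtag
The ETS core occurred 2 times for Foxo1, 1 time for Foxf2, 4 times for Foxd1 and 4 times for Foxa1. It is common, present in 93.4% of 32851 promoters of this length and in 26 of the 29 of forkhead genes. The longer ETS motif CCGGAAGT, which contains the core, was in 2.88% of all promoters and 0 of those of forkhead genes. The forkhead motif was in 3.17% of all and in 1 of forkhead genes, Foxa1. Both strands were searched, and a match describes letters only.

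Among the FoxO genes, Foxo1 was highest in wild-type EYFP+ cells. Foxo1 had log2 levels of 8.93, 9.21 and 8.99 in mutant EYFP+ cells, against 10.80, 10.25 and 10.39 in wild-type EYFP+ cells. Foxo1 levels were 9.12, 9.09 and 9.61 in mutant EYFP- cells, against 9.55, 8.96 and 9.48 in wild-type EYFP- cells. The 3 wild-type EYFP+ arrays lay above the other 9. Foxo1 was 2.70-fold lower in mutant than in wild-type EYFP+ cells (-1.43 ± 0.20 log2, limma adjusted p = 0.00113), a call kept under 25 of 25 alternatives. By sort it differed by -0.23 ± 0.20 log2 in mutants (adjusted p = 0.697) and was 2.21-fold higher on the EYFP+ side in wild types (1.14 ± 0.20 log2, adjusted p = 0.00396). The interaction of -1.37 ± 0.28 log2 passed (adjusted p = 0.0264), but not without mutant EYFP+ array 1 or 3, mutant EYFP- array 3 or wild-type EYFP- array 2 (adjusted p from 0.055 to 0.063) nor without the pair of wild-type arrays numbered 1 (0.0561). Without probe sets whose suffix marks shared probes, the wild-type sort gave 0.39 (adjusted p = 0.352) and the interaction -0.84 (adjusted p = 0.213), and neither passed.

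Foxo4, which is under Akt control like Foxo1, was highest in the other EYFP+ group. Foxo4 had log2 levels of 9.78, 10.28 and 9.87 in mutant EYFP+ cells, against 8.79, 8.99 and 9.16 in wild-type EYFP+ cells. Foxo4 levels were 9.30, 9.04 and 9.14 in mutant EYFP- cells, against 8.96, 8.999 and 9.20 in wild-type EYFP- cells. All 3 mutant EYFP+ arrays stood above the rest. Foxo4 was 1.99-fold higher in mutant than in wild-type EYFP+ cells (0.99 ± 0.15 log2, limma adjusted p = 0.00161). By sort it was 1.76-fold higher in mutants (0.82 ± 0.15 log2, adjusted p = 0.0072) and at -0.07 ± 0.15 log2 in wild types. Its interaction of 0.89 ± 0.21 log2 (adjusted p = 0.0492) was lost without any single array other than mutant EYFP+ array 1 or wild-type EYFP+ array 3 (adjusted p from 0.0584 to 0.131) and under 18 of 24 alternatives in all, with 0.44 (adjusted p = 0.171) as the mean of its probe sets. Foxo4 lies on the X chromosome, and the EYFP+ difference between genotypes was 0.90 (adjusted p = 0.0134) without the wild-type arrays numbered 1. The dimmer Foxo4 probe set passed in no comparison, with 0.24 between the EYFP+ groups and -0.03 in the mutant sort.

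Foxo3, the other FoxO gene among the members, passed in no comparison. Foxo3 had log2 levels of 9.24, 9.67 and 9.26 in mutant EYFP+ cells, against 9.45, 8.96 and 9.09 in wild-type EYFP+ cells. Foxo3 levels were 9.11, 9.70 and 9.21 in mutant EYFP- cells, against 9.30, 8.92 and 9.11 in wild-type EYFP- cells. The groups overlapped, and its smallest limma adjusted p was 0.557. Within arrays, the log2 ratio of Foxo1 to Foxo4 differed by -2.43 log2 and that of Foxo1 to Foxo3 by -1.65 log2 between mutant and wild-type EYFP+ cells, with no overlap. Each had a two-sided exact permutation p = 0.1, the smallest that 3 arrays against 3 allow, and 0.18 after adjustment over the 27 ratio comparisons of forkhead pairs, which were chosen after the values were seen.

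Blood and vessel markers moved with Foxo1. Of 8 endothelial markers 7 were lower in mutant than in wild-type EYFP+ cells, and of 6 primitive erythroid markers 6 were. Of all genes 3.74% were lower there. The erythroid mean was 5.95 to 6.07 in mutant EYFP+ cells, against 11.43 to 12.11 in wild-type EYFP+ cells, and 6.05 to 8.05 in mutant EYFP- cells, against 6.20 to 8.69 in wild-type EYFP- cells. The part of these cell types in the Foxo1 difference was not tested.

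Of 14 measured PI3K-Akt regulators of FoxO, 1 was higher and 2 were lower in mutant than in wild-type EYFP+ cells (median -0.04, with 7.97% of all genes past the threshold there). Sgk1, a kinase that phosphorylates FoxO proteins as Akt does, was at -2.14 ± 0.30 log2 (limma adjusted p = 0.00112). Pik3cb, a catalytic subunit of PI3K, was at -0.59 ± 0.16 log2 and the 14-3-3 gene Ywhae at 0.54 ± 0.11 log2. Ywhae did not pass with the mean of its probe sets, at 0.40 (adjusted p = 0.0531), nor without the pair of wild-type arrays numbered 1 (0.0571). The Pik3cb call was lost without any single array other than wild-type EYFP+ array 2, mutant EYFP- array 2 or wild-type EYFP- array 3 (adjusted p from 0.0536 to 0.125). In the wild-type sort 2 were higher (4.63% of all genes were), Sgk1 at 2.94 ± 0.30 log2 and Pik3cb at 0.66 ± 0.16 log2. The Pik3cb call of this sort was lost without wild-type EYFP+ array 1 or 3 or wild-type EYFP- array 1, 2 or 3 (adjusted p from 0.0541 to 0.108). The interaction of Sgk1 was -2.37 ± 0.42 log2 (adjusted p = 0.0115), but did not pass without the pair of wild-type arrays numbered 1 (0.0608). In the mutant sort limma called 0 of the 14 (5.36% of all genes), with 4 at an unadjusted p under 0.05.

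Of 18 FoxO target genes, 3 were lower (3.74% of all genes were) and 0 higher (4.23%) in mutant than in wild-type EYFP+ cells, with a list median of -0.25. They were Txnip, a thioredoxin inhibitor (-2.00 ± 0.23 log2, limma adjusted p = 0.000295), Sod2, the mitochondrial superoxide dismutase (-0.67 ± 0.10 log2), and Klf2, a flow-responsive factor of endothelium (-0.66 ± 0.17 log2). The Klf2 call was lost without any single array other than wild-type EYFP+ array 2 or mutant EYFP- array 1, 2 or 3 (adjusted p from 0.0525 to 0.12). These 3 were higher in EYFP+ cells of the wild-type sort (4.63% of all genes were), at 1.46, 0.49 and 0.76. Sesn3, a stress-response gene, was lower at -0.62 (adjusted p = 0.0495, with 3.61% of all genes lower). In this sort Klf2 was lost without wild-type EYFP- array 1 or 3 (adjusted p from 0.0589 to 0.0629) and Sod2 without wild-type EYFP- array 2 (adjusted p 0.0563). Sesn3 was lost without any single array other than mutant EYFP+ array 2 or 3 or wild-type EYFP+ array 2 (adjusted p from 0.0623 to 0.168). In the mutant sort 1 of 18 passed, against 5.36% of all genes. It was the DNA damage gene Gadd45a at -1.49 ± 0.31 log2, lost without mutant EYFP+ array 1 or 3 or mutant EYFP- array 1 or 3 (adjusted p from 0.0521 to 0.0596). The interaction passed for Sod2 alone (-0.81 ± 0.15 log2, adjusted p = 0.0133, with 2.58% of all genes called), but not without the pair of wild-type arrays numbered 1 (0.0681). With the mean of its probe sets no Sod2 call held: it was -0.18 (adjusted p = 0.372) between the EYFP+ groups, -0.018 (adjusted p = 0.96) in the wild-type sort and -0.29 (adjusted p = 0.478) in the interaction. Fbxo32, also a listed target, went the other way but did not pass. It was at 1.57 ± 0.45 log2 between the EYFP+ groups (limma adjusted p = 0.059) and at 1.59 ± 0.45 log2 in the mutant sort (0.0758). The interaction of Fbxo32 was 1.94 ± 0.64 log2 (0.189).

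**Figure D2:**
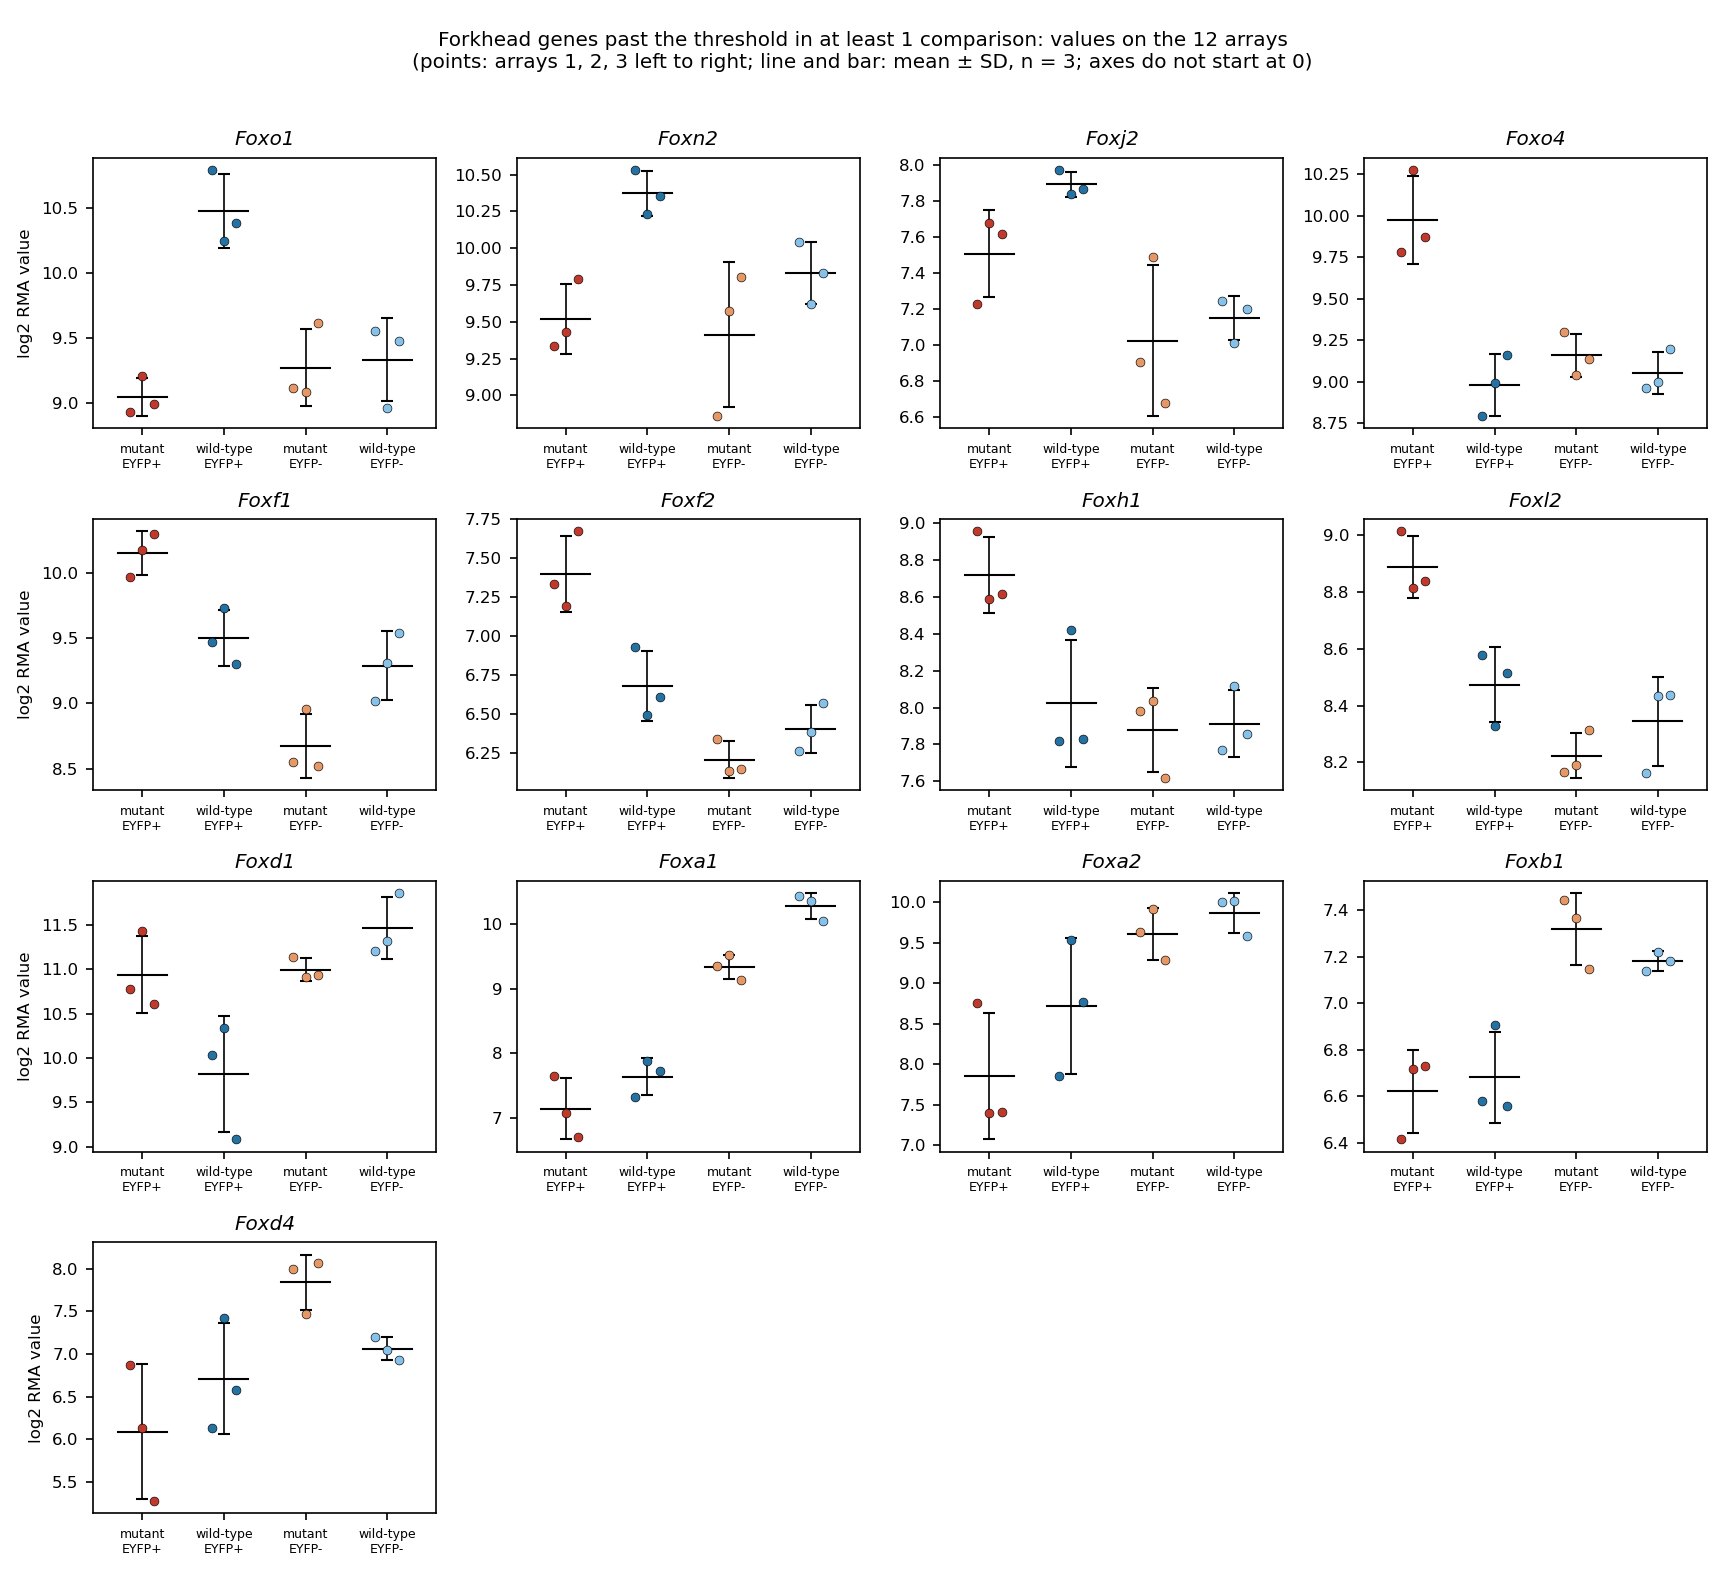
Log2 RMA values of the 13 forkhead genes past the threshold in at least 1 comparison, for 4 groups of 3 arrays. Points are arrays, with mean ± SD. Foxo1 is high on the wild-type EYFP+ arrays (10.25 to 10.80), Foxf1 on the mutant EYFP+ arrays (9.97 to 10.30), and Foxa1 is low in both EYFP+ groups.

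The FoxF genes were highest in mutant EYFP+ cells. Foxf1 is needed for extraembryonic and splanchnic mesoderm. Foxf1 had log2 levels of 9.97, 10.18 and 10.30 in mutant EYFP+ cells, against 9.47, 9.73 and 9.30 in wild-type EYFP+ cells. Foxf1 levels were 8.55, 8.96 and 8.52 in mutant EYFP- cells, against 9.02, 9.31 and 9.54 in wild-type EYFP- cells. The mutant groups held both the 3 highest and the 3 lowest values. By sort, Foxf1 was 2.78-fold higher on the EYFP+ side in mutants (1.47 ± 0.17 log2, limma adjusted p = 0.000612, kept under 25 of 25 alternatives) and at 0.21 ± 0.17 log2 in wild types (adjusted p = 0.615). The interaction of 1.26 ± 0.24 log2 (adjusted p = 0.0176) was lost without wild-type EYFP- array 2 (adjusted p 0.0528). Between the EYFP+ groups the difference of 0.65 ± 0.17 log2 (adjusted p = 0.0407) was lost under 14 of 25 alternatives, among them without mutant EYFP+ array 1, 2 or 3, wild-type EYFP+ array 1 or 3 or wild-type EYFP- array 2 (adjusted p from 0.0502 to 0.126) and without the pair of wild-type arrays numbered 1 (0.0918).

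Foxf2, a gene of gut and vessel-wall mesenchyme, followed the same order at its brightest probe set. Foxf2 had log2 levels of 7.33, 7.19 and 7.67 in mutant EYFP+ cells, against 6.93, 6.50 and 6.61 in wild-type EYFP+ cells. Foxf2 levels were 6.34, 6.14 and 6.15 in mutant EYFP- cells, against 6.27, 6.39 and 6.57 in wild-type EYFP- cells. No other array reached the mutant EYFP+ values. Foxf2 was 2.28-fold higher on the EYFP+ side in mutants (1.19 ± 0.15 log2, limma adjusted p = 0.000979) and 1.65-fold higher in mutant than in wild-type EYFP+ cells (0.72 ± 0.15 log2, adjusted p = 0.0134), and both calls were kept without any single array. With the mean of its probe sets the second was 0.32 (adjusted p = 0.0822) and the interaction 0.40 (adjusted p = 0.238). Its interaction of 0.92 ± 0.21 log2 (adjusted p = 0.0475) was lost with replicate numbers as a block (0.0588) and without any single array other than mutant EYFP+ array 2 or wild-type EYFP+ array 1 (adjusted p from 0.0593 to 0.126). The log2 ratio of Foxf1 to Foxf2 differed by 0.28 in the mutant sort and by -0.07 between the EYFP+ groups, with overlap in each (exact permutation p = 0.3 and 0.8). The dimmer probe sets of the FoxF genes passed in no comparison, with mutant sort differences of 0.41 for Foxf1 and -0.07 for Foxf2.

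Lateral plate and cardiac markers were higher where the FoxF genes were, and paraxial mesoderm markers were not. Of 7 lateral plate and allantois markers, 6 were higher in mutant than in wild-type EYFP+ cells (4.23% of all genes) and 6 higher on the EYFP+ side in mutants (3.07%). Their mean was 9.80 to 10.45 in mutant EYFP+ cells, against 8.77 to 8.91 in wild-type EYFP+ cells, and 8.37 to 8.39 in mutant EYFP- cells, against 8.68 to 8.70 in wild-type EYFP- cells. All 6 cardiac markers were higher in the same comparisons, with means of 11.69 to 12.00 in mutant EYFP+ cells, against 9.47 to 10.42 in wild-type EYFP+ cells. Of 7 paraxial mesoderm and somite markers, 1 was lower and 0 higher between the EYFP+ groups (median 0.09), where 3.74% of all genes were lower. In the mutant sort 3 were lower and 0 higher (median -1.17), with 2.29% of all genes lower. The part of these cell types in the FoxF differences was not tested.

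Some Hedgehog pathway genes, which act upstream of FoxF, also passed. Of 13 measured, 3 were higher in mutant than in wild-type EYFP+ cells (median 0.49), against 4.23% of all genes. They were the transcription factor Gli2 (1.35 ± 0.20 log2, limma adjusted p = 0.00179) and the coreceptors Boc (0.73 ± 0.13 log2) and Gas1 (0.51 ± 0.14 log2). In the mutant sort 1 was lower (2.29% of all genes), the ligand Shh (-2.65 ± 0.48 log2, adjusted p = 0.00771), and 0 higher. In the wild-type sort 6 were lower (median -0.54), against 3.61% of all genes. They included Shh (-2.68 ± 0.48 log2), Gli2 (-1.31 ± 0.20 log2), Gas1 (-0.84 ± 0.14 log2) and Boc (-0.61 ± 0.13 log2). The interaction passed for Gli2 alone (1.31 ± 0.29 log2, adjusted p = 0.0372), against 2.58% of all genes. This call was lost without any single array other than wild-type EYFP+ array 1, 2 or 3, mutant EYFP- array 3 or wild-type EYFP- array 2 (adjusted p from 0.0574 to 0.102). The Gas1 call between the EYFP+ groups was lost without any single array other than mutant EYFP+ array 2 or mutant EYFP- array 1 or 3 (adjusted p from 0.0558 to 0.161), and the Boc call of the wild-type sort without wild-type EYFP+ array 1 or wild-type EYFP- array 2 (adjusted p from 0.0611 to 0.0707).

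Foxh1, the Nodal partner, was also highest in mutant EYFP+ cells. Foxh1 had log2 levels of 8.96, 8.59 and 8.62 in mutant EYFP+ cells, against 7.82, 8.42 and 7.83 in wild-type EYFP+ cells. Foxh1 levels were 7.98, 8.04 and 7.62 in mutant EYFP- cells, against 7.77, 8.12 and 7.86 in wild-type EYFP- cells. Again the 3 mutant EYFP+ arrays lay above the rest. The difference was 0.70 ± 0.19 log2 between the EYFP+ groups (limma adjusted p = 0.0415) and 0.84 ± 0.19 log2 in the mutant sort (adjusted p = 0.0215). The first was lost under 17 of 25 alternatives, among them without any single array other than wild-type EYFP+ array 2 or mutant EYFP- array 2 or 3 (adjusted p from 0.0509 to 0.143) and without the pair of wild-type arrays numbered 1 (0.156), and the second without mutant EYFP+ array 1 or mutant EYFP- array 3 (adjusted p from 0.0758 to 0.0868). The 3 probe sets gave 0.84, 0.09 and 1.20 for the mutant sort, from brightest to dimmest. The brightest has a suffix for probes shared between transcripts, and without such probe sets the values were 0.35 (adjusted p = 0.163) between the EYFP+ groups and 0.09 (adjusted p = 0.847) in the mutant sort.

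Of 14 measured Nodal pathway genes, 2 were higher in mutant than in wild-type EYFP+ cells (median 0.07), against 4.23% of all genes. They were the coreceptor Tdgf1 (1.30 ± 0.27 log2, limma adjusted p = 0.0113) and Smad3, a signal carrier (0.66 ± 0.18 log2). The Tdgf1 call was lost without the pair of wild-type arrays numbered 1 (adjusted p = 0.0539). Tdgf1 also passed in the interaction (1.73 ± 0.38 log2, adjusted p = 0.0349, with 2.58% of all genes called), but not without any single array other than mutant EYFP+ array 3, mutant EYFP- array 1 or wild-type EYFP- array 3 (adjusted p from 0.0536 to 0.0962). The Smad3 call was lost without any single array other than mutant EYFP+ array 2, mutant EYFP- array 1 or 2 or wild-type EYFP- array 2 or 3 (adjusted p from 0.0538 to 0.129). With the mean of its probe sets Smad3 was at 0.28 (adjusted p = 0.148). In the mutant sort 2 were lower (2.29% of all genes were), the streak gene Mixl1 (-1.06 ± 0.18 log2) and the Nodal antagonist Cer1 (-0.89 ± 0.19 log2). The Cer1 call was lost without mutant EYFP+ array 2 or mutant EYFP- array 1 (adjusted p from 0.0563 to 0.0807). The wild-type sort gave -1.02 ± 0.18 log2 for Mixl1 and -1.08 ± 0.19 log2 for Cer1 (3.61% of all genes were lower). Both calls of this sort were lost without the pair of wild-type arrays numbered 1 (adjusted p 0.0612 and 0.0609). In the same sort the receptor gene Acvr1b was higher (0.75 ± 0.12 log2, 4.63% of all genes).

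Foxl2, best known from ovary and eyelid, had the same order. Foxl2 had log2 levels of 9.01, 8.81 and 8.84 in mutant EYFP+ cells, against 8.58, 8.33 and 8.52 in wild-type EYFP+ cells. Foxl2 levels were 8.17, 8.19 and 8.31 in mutant EYFP- cells, against 8.16, 8.43 and 8.44 in wild-type EYFP- cells. The mutant EYFP+ arrays were above all others. The mutant sort gave 0.66 ± 0.11 log2 (limma adjusted p = 0.00488), and with the mean of its probe sets 0.27 (adjusted p = 0.151), which did not pass. The EYFP+ groups differed by 0.41 ± 0.11 log2 (adjusted p = 0.0444), which was lost under 20 of 25 alternatives, among them without any single array other than wild-type EYFP- array 1 (adjusted p from 0.0524 to 0.151) and replicate numbers as a block (0.058). The dimmer of its probe sets was at -0.13 in the mutant sort.

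Foxa1, a gene of gut endoderm, was lower on the EYFP+ side in both genotypes. Foxa1 had log2 levels of 7.64, 7.08 and 6.70 in mutant EYFP+ cells, against 7.32, 7.88 and 7.72 in wild-type EYFP+ cells. Foxa1 levels were 9.36, 9.51 and 9.14 in mutant EYFP- cells, against 10.43, 10.35 and 10.05 in wild-type EYFP- cells. In each genotype the EYFP+ arrays lay below the EYFP- arrays. Foxa1 was 4.58-fold lower in mutants (-2.19 ± 0.23 log2, limma adjusted p = 0.000304) and 6.23-fold lower in wild types (-2.64 ± 0.23 log2, adjusted p = 2.1e-05), and both calls were kept under 25 of 25 alternatives. Its interaction of 0.44 ± 0.32 log2 did not pass (adjusted p = 0.673). Foxa3, another FoxA gene, passed in no comparison, with a smallest adjusted p of 0.0741. In the wild-type sort it did pass without wild-type EYFP- array 2, at -0.51 (adjusted p = 0.0237).

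Foxa2, a gene of node, notochord and floor plate, scattered within groups. Foxa2 had log2 levels of 8.75, 7.40 and 7.40 in mutant EYFP+ cells, against 7.85, 9.53 and 8.77 in wild-type EYFP+ cells. Foxa2 levels were 9.63, 9.92 and 9.28 in mutant EYFP- cells, against 10.00, 10.01 and 9.58 in wild-type EYFP- cells. No EYFP+ array reached the EYFP- arrays of its genotype. Foxa2 was 3.38-fold lower on the EYFP+ side in mutants (-1.76 ± 0.42 log2, limma adjusted p = 0.0335), a call lost without mutant EYFP+ array 2 or 3, mutant EYFP- array 1, 2 or 3 or wild-type EYFP- array 1 or 2 (adjusted p from 0.0522 to 0.128). In wild types -1.15 ± 0.42 log2 did not pass (adjusted p = 0.149) but did without wild-type EYFP+ array 2, at -1.55 (adjusted p = 0.0461). The interaction was -0.61 ± 0.60 log2 (adjusted p = 0.779).

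Foxb1, a gene of neural tube and hypothalamus, was lower on the EYFP+ side in both genotypes. Foxb1 had log2 levels of 6.41, 6.72 and 6.73 in mutant EYFP+ cells, against 6.58, 6.91 and 6.56 in wild-type EYFP+ cells. Foxb1 levels were 7.44, 7.37 and 7.15 in mutant EYFP- cells, against 7.14, 7.22 and 7.18 in wild-type EYFP- cells. The sort groups did not overlap in either genotype. The differences were -0.70 ± 0.13 log2 in mutants (limma adjusted p = 0.00844, kept without any single array) and -0.50 ± 0.13 log2 in wild types (adjusted p = 0.0359). The wild-type call was lost without wild-type EYFP+ array 1 or 3 or wild-type EYFP- array 1, 2 or 3 (adjusted p from 0.0823 to 0.12), without the pair of arrays numbered 1 (0.205) and with each array centred on its median (0.0557).

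Foxb2, a close relative of Foxb1, passed in no comparison (smallest adjusted p 0.539). Foxd4, a gene of the early neural plate, was lower by sort in mutants. Foxd4 had log2 levels of 6.87, 6.13 and 5.28 in mutant EYFP+ cells, against 6.14, 7.42 and 6.58 in wild-type EYFP+ cells. Foxd4 levels were 7.99, 7.47 and 8.06 in mutant EYFP- cells, against 7.20, 7.05 and 6.93 in wild-type EYFP- cells. The wild-type groups overlapped, the mutant groups did not. Foxd4 had a mean at percentile 35.6 of gene means, and its lowest values may sit near background. The mutant difference of -1.75 ± 0.38 log2 (limma adjusted p = 0.0202) was lost without mutant EYFP+ array 2 or 3 or mutant EYFP- array 1 or 3 (adjusted p from 0.0586 to 0.0775). The wild-type one was -0.35 ± 0.38 log2 and the interaction -1.40 ± 0.54 log2 (adjusted p = 0.283), so a difference between genotypes was not shown. Foxd3, a gene of neural crest and epiblast, was at -0.45 ± 0.12 log2 in mutants and -0.40 ± 0.12 log2 in wild types (adjusted p = 0.0587 and 0.0752). The mutant difference passed without wild-type EYFP- array 2 or 3 (0.0399 and 0.0405), and the wild-type one without wild-type EYFP- array 3, at -0.51 (adjusted p = 0.0351).

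Most neural markers and some epithelial ones were also lower by sort. Of 6 neural ectoderm markers, 6 were lower by sort in mutants (2.29% of all genes) and 5 in wild types (3.61%). Their mean was 8.64, 7.60 and 7.30 in mutant EYFP+ cells, against 11.13 to 11.21 in mutant EYFP- cells, and 7.86, 9.07 and 8.53 in wild-type EYFP+ cells, against 10.87 to 11.18 in wild-type EYFP- cells. Within each genotype, Foxa1, Foxa2 and Foxd4 had their highest EYFP+ values on the array where this mean was highest, mutant array 1 and wild-type array 2. Foxb1 did so in wild types only, and mutant array 1 held its lowest EYFP+ value (6.41, against 6.72 and 6.73). Foxd3 did so in mutants only, and wild-type array 2 held its lowest EYFP+ value (6.74, against 6.90 and 6.99). Besides the neural mean, mutant EYFP+ array 1 was the highest of its group for yolk sac endoderm markers (given above) and for endoderm and epithelial markers (9.24, against 8.58 and 8.87). The mean of the 3 measured of 5 listed notochord markers was 7.15 there, against 6.63 and 6.62 on its fellows. Among these, Shh was at 9.13, against 7.51 and 7.69, and Chrd at 6.48, against 6.25 and 6.35. Nog was at 5.85, against 6.14 and 5.82. Of 6 endoderm and epithelial markers, 3 were lower and 1 higher by sort in each genotype. Of all genes 2.29% were lower and 3.07% higher in mutants, and 3.61% and 4.63% in wild types. The marker means were 8.58 to 9.24 in mutant EYFP+ cells, against 9.91 to 10.64 in mutant EYFP- cells. The part of such cells in the forkhead differences was not tested.

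Of 10 measured endoderm and notochord genes that act with FoxA, 4 were lower and 2 higher in the mutant sort (median -0.41). Of all genes 2.29% were lower and 3.07% higher there. The adhesion genes Epcam and Cdh1 were at -3.21 ± 0.42 log2 and -3.88 ± 0.47 log2, and Shh and Cer1 are among those described above, while Gata6, a factor of endoderm and heart, was at 1.88 ± 0.11 log2 and the keratin Krt8 at 1.13 ± 0.18 log2 (limma adjusted p from 4.56e-05 to 0.00291). In the wild-type sort 4 were lower (3.61% of all genes), Cdh1, Epcam, Shh and Cer1. There 1 was higher (4.63% of all genes), Sox17, a factor of endoderm and of endothelium (2.88 ± 0.39 log2). Between the EYFP+ groups 3 of the 10 were higher (4.23% of all genes) and 1 was lower (3.74%), with a list median of 0.49. Sox17 was at -4.21 ± 0.39 log2 and Gata6 at 1.19 ± 0.11 log2. Krt8 was at 1.16 ± 0.18 log2 (adjusted p = 0.00179) and Krt18 at 1.22 ± 0.30 log2 (0.0281).

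Foxd1, a gene of forebrain, retina and kidney stroma, was lowest in wild-type EYFP+ cells. Foxd1 had log2 levels of 10.78, 11.43 and 10.61 in mutant EYFP+ cells, against 10.03, 10.34 and 9.08 in wild-type EYFP+ cells. Foxd1 levels were 11.14, 10.92 and 10.93 in mutant EYFP- cells, against 11.20, 11.32 and 11.86 in wild-type EYFP- cells. The 3 wild-type EYFP+ arrays lay below the other 9. In the wild-type sort it was 3.12-fold lower (-1.64 ± 0.31 log2, limma adjusted p = 0.00604, kept under 25 of 25 alternatives), and in the mutant sort at -0.06 ± 0.31 log2. The interaction of 1.59 ± 0.44 log2 did not pass (adjusted p = 0.0982), but did without wild-type EYFP+ array 2, at 1.85 (adjusted p = 0.0463). The EYFP+ groups differed by 1.12 ± 0.31 log2 (adjusted p = 0.0478), lost under 18 of 25 alternatives, among them without any single array other than wild-type EYFP+ array 2 (adjusted p from 0.0511 to 0.142) and replicate numbers as a block (0.069).

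The FoxC genes, partners of Etv2 at FOX:ETS sites, passed in no comparison. Foxc2 had log2 levels of 10.06, 9.99 and 9.92 in mutant EYFP+ cells, against 10.01, 10.07 and 9.95 in wild-type EYFP+ cells. Foxc2 levels were 10.53, 9.66 and 10.06 in mutant EYFP- cells, against 10.00, 10.15 and 10.68 in wild-type EYFP- cells. The groups overlapped, and the EYFP+ groups differed by -0.01 ± 0.21 log2 (limma adjusted p = 0.979). Foxc1 had log2 levels of 8.86, 9.17 and 8.34 in mutant EYFP+ cells, against 8.77, 8.67 and 8.66 in wild-type EYFP+ cells. Foxc1 levels were 9.12, 7.61 and 8.56 in mutant EYFP- cells, against 8.77, 9.18 and 9.36 in wild-type EYFP- cells. Mutant EYFP- array 2 was the lowest, and the EYFP+ groups differed by 0.09 ± 0.33 log2 (adjusted p = 0.911). The dimmer Foxc1 probe set was at -0.96 in the wild-type sort (adjusted p = 0.0433 over all probe sets, of which 2.22% were lower), where the brighter gave -0.41 ± 0.33 log2.

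Endothelial genes with described FOX:ETS enhancers did change. Of 12, 7 were lower (3.74% of all genes) and 0 higher (4.23%) in mutant than in wild-type EYFP+ cells (median -1.15). Cdh5, Tek, Tie1 and Kdr are also among the endothelial markers given above, so this list is not independent of them. Cdh5, the endothelial cadherin, was at -5.24 ± 0.11 log2, the VEGF receptor Flt4 at -3.73 ± 0.11 log2, the blood and vessel factor Tal1 at -4.69 ± 0.18 log2 and the nitric oxide synthase Nos3 at -2.15 ± 0.14 log2 (limma adjusted p from 3.4e-10 to 2.37e-06). In the mutant sort 6 were higher in EYFP+ cells (3.07% of all genes, median 0.87). They included Kdr, another VEGF receptor (2.57 ± 0.16 log2), Mef2c (1.72 ± 0.18 log2), the coreceptor Nrp1 (1.67 ± 0.18 log2) and the angiopoietin receptor Tek (2.04 ± 0.28 log2). The wild-type sort gave 11 higher (4.63% of all genes, median 2.21).

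FoxC and FoxF genes are neighbours. In the RefSeq table, chromosome 8 holds Foxf1, Mthfsd, Foxc2 and Foxl1, a gut mesenchyme gene, in a row, and chromosome 13 holds Foxq1, Foxf2 and Foxc1. Over the 12 arrays Foxl1 ranged over 6.97 to 7.24 and Foxq1 over 6.82 to 7.32, and neither passed in any comparison. In the mutant sort the log2 ratio of Foxf1 to Foxc2 differed by 1.57, that of Foxf1 to Foxl1 by 1.40 and that of Foxf2 to Foxq1 by 1.14. None of these overlapped between groups, and each had exact permutation p = 0.1, the smallest possible (0.18 adjusted over the 27). The ratio of Foxf2 to Foxc1 differed by 0.83 with overlap (exact permutation p = 0.3).

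**Figure D3:**
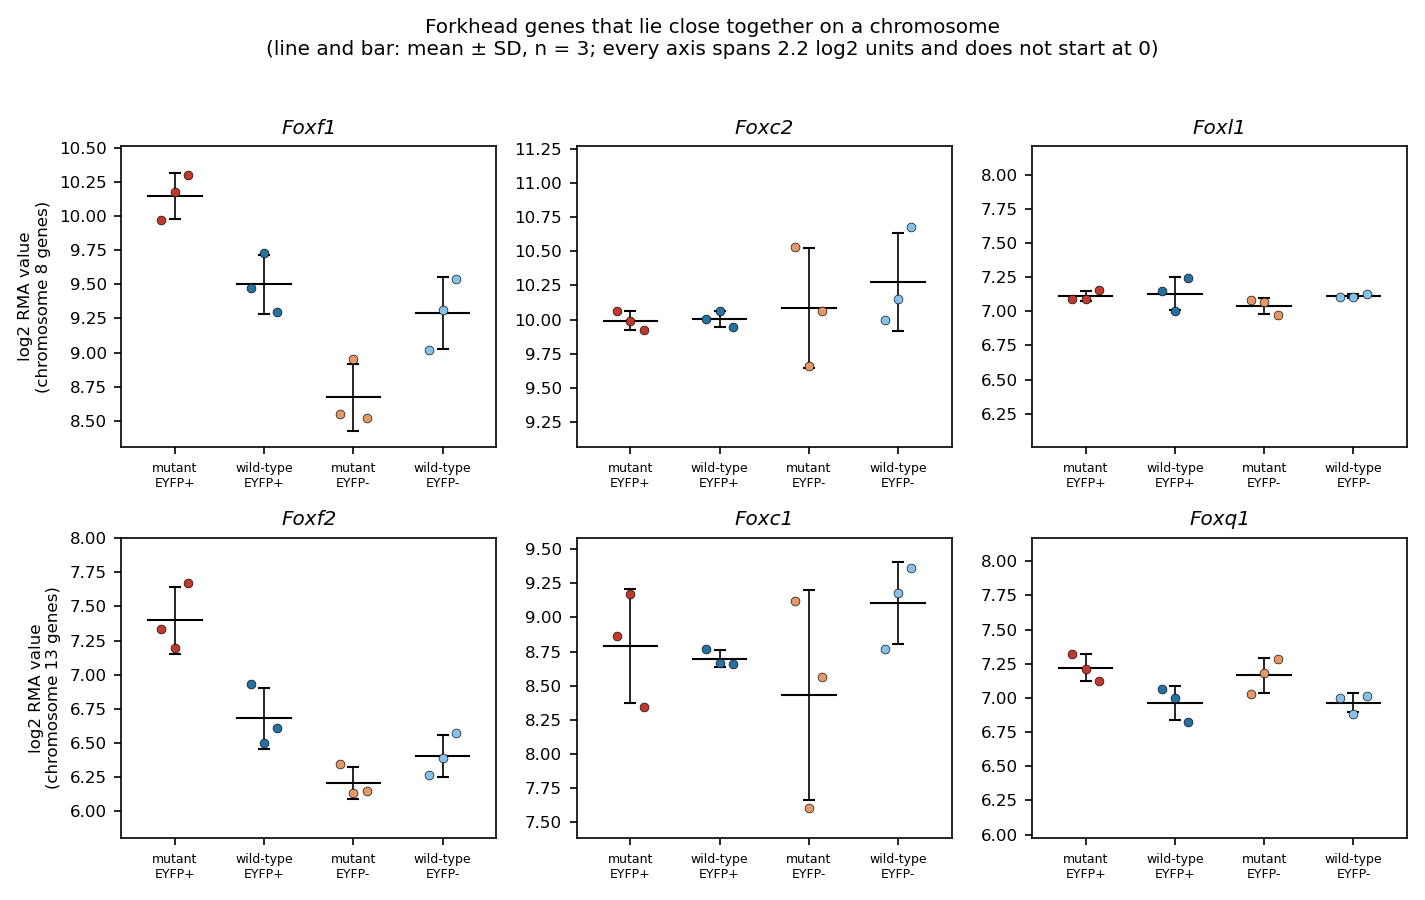
Log2 RMA values of neighbouring forkhead genes on chromosome 8 (top) and chromosome 13 (bottom), with points for the 3 arrays of each group and mean ± SD. All panels span the same number of log2 units. Foxf1 and Foxf2 are highest in mutant EYFP+ cells, and Foxc2, Foxl1, Foxc1 and Foxq1 passed in no comparison.

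Foxp1, a gene of heart, lung and lymphocytes, depended on the probe set and on an array. Foxp1 had log2 levels of 10.92, 11.16 and 11.05 in mutant EYFP+ cells, against 11.26, 10.32 and 10.36 in wild-type EYFP+ cells. Foxp1 levels were 10.49, 10.47 and 10.73 in mutant EYFP- cells, against 10.96, 11.00 and 11.24 in wild-type EYFP- cells. Wild-type EYFP+ array 1 stood apart from its fellows, and the EYFP+ groups overlapped. The difference between the EYFP+ groups was 0.39 ± 0.21 log2 (limma adjusted p = 0.318). Without that array it was 0.70 (adjusted p = 0.0092), the mutant sort 0.48 (adjusted p = 0.0381), the wild-type sort -0.72 (adjusted p = 0.00759) and the interaction 1.20 (adjusted p = 0.00436).

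Of the 8 Foxp1 probe sets, 3 were higher in mutant than in wild-type EYFP+ cells, at 0.97, 1.14 and 1.12 (limma adjusted p from 0.000186 to 0.0229 over all probe sets, of which 2.88% were higher). All 8 estimates were above 0, from 0.13 to 1.14. In the wild-type sort 2 were lower, at -0.78 and -0.90 (2.22% of probe sets were), and in the mutant sort 1 was higher, at 0.73 (2.09%). The interaction called 2, at 1.51 and 1.56 (0.567% of probe sets were above 0). The mean of the 8 gave 0.76 (adjusted p = 0.00229) between the EYFP+ groups and 0.91 (adjusted p = 0.0132) for the interaction.

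The 4 Foxo1 probe sets were at -1.43, -0.83, -0.06 and -0.93 between mutant and wild-type EYFP+ cells, from brightest to dimmest, and 3 of them were lower (2.95% of all probe sets). The brightest is the one with the suffix for shared probes.

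**Figure D4:**
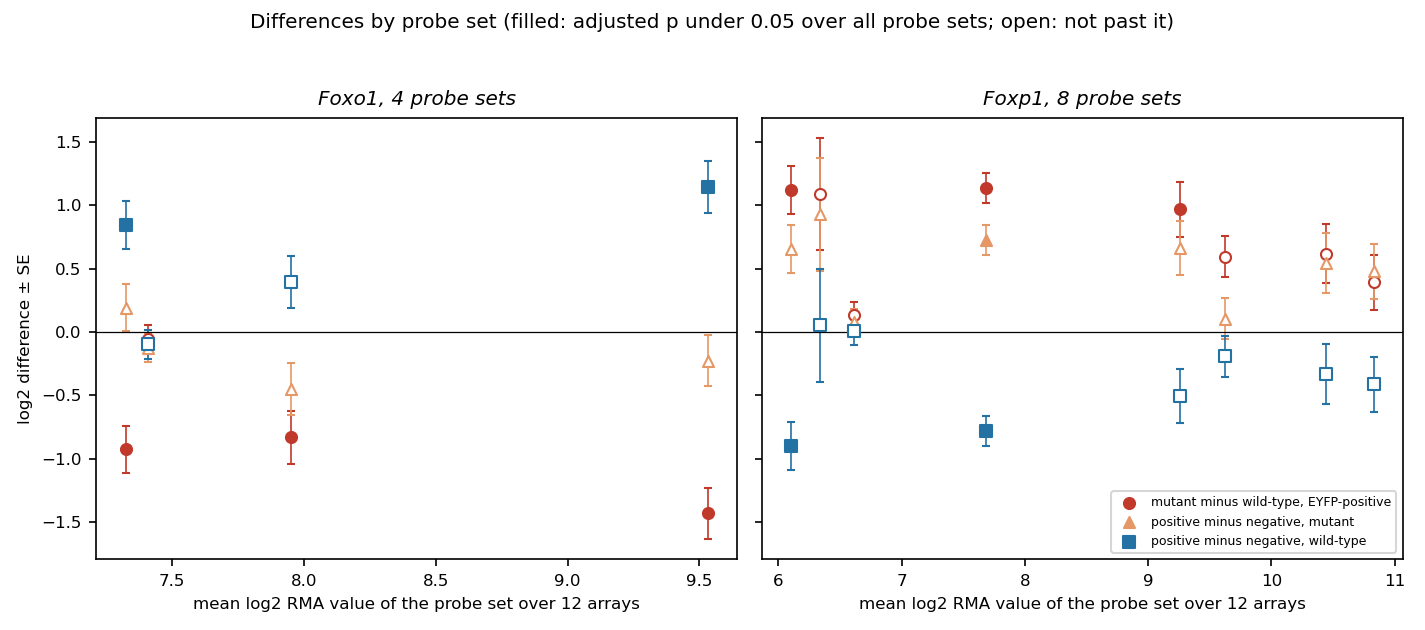
Log2 differences ± SE of each probe set of Foxo1 (left) and Foxp1 (right) against the probe set's mean log2 value over the 12 arrays, for 3 comparisons. Filled symbols passed over all probe sets. For mutant minus wild-type EYFP+ cells, 3 of 4 Foxo1 and 3 of 8 Foxp1 probe sets did.

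Foxn2 and Foxj2 were highest in wild-type EYFP+ cells. Foxn2 had log2 levels of 9.34, 9.43 and 9.79 in mutant EYFP+ cells, against 10.53, 10.23 and 10.36 in wild-type EYFP+ cells. Foxn2 levels were 8.86, 9.57 and 9.80 in mutant EYFP- cells, against 10.04, 9.62 and 9.83 in wild-type EYFP- cells. The wild-type EYFP+ arrays were above all others. Foxn2 was 1.81-fold lower in mutant than in wild-type EYFP+ cells (-0.86 ± 0.22 log2, limma adjusted p = 0.0363), a call lost without mutant EYFP+ array 1 or 2, wild-type EYFP+ array 1, 2 or 3 or wild-type EYFP- array 3 (adjusted p from 0.0551 to 0.118) and without the pair of wild-type arrays numbered 1 (0.131). With the mean of its probe sets it was -0.68 (adjusted p = 0.124) and did not pass. The wild-type sort difference of Foxn2, 0.54 ± 0.22 log2 (adjusted p = 0.199), passed with replicate numbers as a block (0.0301).

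Foxj2 had log2 levels of 7.23, 7.68 and 7.62 in mutant EYFP+ cells, against 7.97, 7.84 and 7.87 in wild-type EYFP+ cells. Foxj2 levels were 6.91, 7.49 and 6.68 in mutant EYFP- cells, against 7.24, 7.01 and 7.20 in wild-type EYFP- cells. Here too the wild-type EYFP+ arrays were the highest. By sort, Foxj2 was 1.67-fold higher in wild-type EYFP+ cells (0.74 ± 0.19 log2, limma adjusted p = 0.0331). The call was lost without wild-type EYFP+ array 1, 2 or 3 or wild-type EYFP- array 1, 2 or 3 (adjusted p from 0.0662 to 0.123), without the pair numbered 1 (0.17) and with the mean of its probe sets at 0.34 (adjusted p = 0.156). In mutants the sort difference was 0.48 ± 0.19 log2 (adjusted p = 0.219), which passed without mutant EYFP- array 2, at 0.72 (adjusted p = 0.0248).

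Foxm1, a driver of mitotic genes, did not pass. Foxm1 had log2 levels of 8.80, 8.89 and 9.05 in mutant EYFP+ cells, against 8.49, 8.74 and 8.40 in wild-type EYFP+ cells. Foxm1 levels were 8.80, 8.69 and 8.79 in mutant EYFP- cells, against 8.66, 8.44 and 8.59 in wild-type EYFP- cells. The EYFP+ groups did not overlap, at 0.37 ± 0.11 log2 (limma adjusted p = 0.0736), and the difference passed without wild-type EYFP+ array 2, at 0.46 (adjusted p = 0.0361). Of 11 measured Foxm1 targets 0 passed by limma in any comparison, with 4 at an unadjusted p under 0.05 between the EYFP+ groups. Between the EYFP+ groups their median was 0.30, with the kinase Nek2 at 0.42 ± 0.13 log2 (adjusted p = 0.0862) and the centromere histone Cenpa at 0.35 ± 0.11 log2 (0.0845).

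The remaining members passed in no comparison of the main fit. Foxj1, the master gene of motile cilia, ranged over 5.64 to 6.03 across the 12 arrays. Of 10 measured cilia genes, 1 was lower in the mutant sort (2.29% of all genes) and 1 in the wild-type sort (3.61%). In mutants it was the dynein Dnah11 (-0.50 ± 0.12 log2), lost without mutant EYFP+ array 1, 2 or 3 or mutant EYFP- array 2 or 3 (adjusted p from 0.0527 to 0.106). In wild types it was the factor Rfx3 (-0.80 ± 0.17 log2), lost without wild-type EYFP- array 3 (adjusted p 0.054). The means of 6 members (Foxe3, Foxi1, Foxj1, Foxn1, Foxp3 and Foxs1) lay below the 25th percentile of all gene means, where a level may sit near background. Of brighter members, Foxj3 ranged over 10.65 to 11.49, Foxn3, a checkpoint gene, over 10.23 to 10.65, and Foxk2 over 9.30 to 9.95. With the mean of its probe sets Foxj3 passed between the EYFP+ groups, at 0.44 (limma adjusted p = 0.045). Its 3 probe sets ran from 0.04 to 1.19 there, and 1 was called higher (2.88% of all probe sets were).

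Mutant and wild-type EYFP- cells differed past the threshold in 0 of 37 members and 0 of 18193 genes by limma (0%), and in 0 members under any alternative run. At an unadjusted p under 0.05 there were 4 members and 949 genes, and the arrays did not overlap for 10 of 37 members (27%, against 11.2% of all genes). The differences ran from -0.94 for Foxa1 to 0.78 for Foxd4. Foxf1 was at -0.62 ± 0.17 log2 (adjusted p = 0.909), a difference that enters its interaction. Of the pathway lists, 0 genes passed here.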

How the data were processed

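RNA of sorted cells was amplified in 2 rounds, per the labels, and measured on 12 arrays of one mouse expression platform. The deposited log2 values had been computed by the authors with RMA, a tool that the submitters' processing notes name without a version. The table held 45101 probe sets, of which 64 were controls, 34945 had 1 gene symbol in the platform annotation, 932 had several and 9160 were not listed. Each of 18193 genes kept its probe set with the highest mean. Scanner signals were not used here, so background cannot be checked, and 3 arrays a group limit the precision.

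A model of the 4 group means was fitted with limma 3.58.1 in R 4.3.3 on 8 residual degrees of freedom, after a check on simulated data. Adjusted p-values are Benjamini-Hochberg over all genes, with a threshold of 0.05. Exact permutation tests were two-sided. Named were all members past the threshold, 9 members (Foxa2, Foxc1, Foxc2, Foxf1, Foxh1, Foxm1, Foxo1, Foxo3 and Foxp1) in any case, the largest other differences, and up to 4 genes of a list per comparison by smallest p. Members and lists were chosen with earlier results of these data known. The lists came from general knowledge of each pathway.

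Equal replicate numbers went with correlated deviations from the group means within a genotype, at 0.403 to 0.554 for mutant and 0.102 to 0.202 for wild-type EYFP+ and EYFP- arrays. A pairing by number therefore comes from the data, not from the labels. The main fit holds group means only, so its sort and interaction p-values do not use this pairing. It entered only as a replicate block among the alternatives. Alternatives, 25 in all, changed the probe set rule, dim-gene filter, normalization, moderation, array weights, groups fitted, minimum fold and replicate block, or left out arrays. Pathway genes went through them after the data were seen.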

Additional observations from a re-analysis of the deposited data

Results flagged for a closer look

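In 4 forkhead genes the sort difference differed between genotypes by the interaction test, given here as the mutant difference minus the wild-type one (log2, limma). For Foxf1 it was 1.26, from 1.47 in mutants and 0.21 in wild types. For Foxf2 it was 0.92, from 1.19 in mutants and 0.27 in wild types. For Foxo1 it was -1.37, from -0.23 in mutants and 1.14 in wild types. For Foxo4 it was 0.89, from 0.82 in mutants and -0.07 in wild types. Without wild-type EYFP- array 2, 0 of the 4 passed. The mean of probe sets ended the interaction calls of Foxf2 (0.40) and Foxo4 (0.44), and leaving out probe sets with shared probes ended that of Foxo1 (-0.84). Groups of 3 arrays are too small for a search for outlying arrays.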

How the results depend on the processing

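The 5 comparisons made 26 calls of members. Of these, 6 were lost under no alternative (Foxa1 in both sorts, Foxd1 in the wild-type sort, Foxf1 and Foxf2 in the mutant sort and Foxo1 between the EYFP+ groups), 20 were lost under at least 1, and 0 changed direction. Calls lost numbered 14 at a minimum of 2-fold, 8 with the mean of probe sets, 8 with the 2 groups compared alone, 7 with all probe sets tested, 5 with centred arrays, 4 after quantile normalization and 0 without the dimmest genes.

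Between the EYFP+ groups the 8 members became 4 with all probe sets tested, 5 with each array centred, 5 after quantile normalization, 5 with array weights, 3 with the 2 groups alone, 2 at a minimum of 2-fold and 5 without the pair of wild-type arrays numbered 1. At a minimum of 2-fold the 9 of the mutant sort became 5, the 5 of the wild-type sort 3 and the 4 of the interaction 2, the last also 2 with all probe sets tested. With single arrays left out the counts ran from 3 to 7 between the EYFP+ groups, 6 to 10 in the mutant sort, 3 to 5 in the wild-type sort, 0 to 4 in the interaction and 0 to 0 between the EYFP- groups. Fewer arrays or tighter rules explain part by construction; the cause was otherwise not tested.

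With replicate numbers as a block within a genotype, the counts were 6 between the EYFP+ groups, 9 in the mutant sort, 6 in the wild-type sort, 3 in the interaction and 0 between the EYFP- groups. This pairing ended the calls of Foxd1 and Foxl2 between the EYFP+ groups and of Foxf2 in the interaction, added Foxn2 in the wild-type sort, and changed no other call of a member. As a block across all groups the counts were 6, 9, 5, 3 and 0 in the same order.

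Over all genes the 1450 calls between the EYFP+ groups became 844 with the 2 groups alone and 647 at a minimum of 2-fold. The 975 of the mutant sort became 543 at a minimum of 2-fold and 1486 with the block. The 1499 of the wild-type sort became 749 at a minimum of 2-fold and 760 without the arrays numbered 1. The 469 of the interaction became 797 with the block and 299 without wild-type EYFP- array 2, and the 0 between the EYFP- groups 2 without mutant EYFP- array 2.

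Small differences that missed the threshold turned their sign when single arrays were left out. Between the EYFP+ groups Foxc1 ran from -0.098 to 0.32 and Foxc2 from -0.050 to 0.020, in the mutant sort Foxd1 ran from -0.30 to 0.11, and in the wild-type sort Foxo4 ran from -0.16 to 0.024. Foxd4 was at 0.0066 in the wild-type sort without both arrays numbered 1. The FoxO target Sod2, called in the wild-type sort, was at -0.018 with the mean of its probe sets. The cause was not tested.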
